A study of Mus musculus with 6 samples.

Results

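The genes described here are the transcription factor gene Nfe2l2 (encoding NRF2), its inhibitor gene Keap1, 7 classic NRF2 targets (Nqo1, Srxn1, Txnrd1, Gclc, Gclm, Hmox1 and Slc7a11) and the carbonyl reductase gene Cbr3, in mouse brown adipose tissue with and without Cd36. Every array probe annotated with 1 of these 10 symbols was taken, which gave 23 probes. Of these, 15 probes from 9 genes were detected often enough to be compared, among 17912 such probes and 10150 named genes on the array. The set was drawn up with earlier results of the same genotype comparison known, and Cbr3 is the gene of the set that stood far out in it. The levels and differences of the 10 genes are therefore given as a description. Their calls in the test of the whole array are counted, and nothing is read from those counts.

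Cd36 null mice were compared with wild type mice, both male, on a C57BL6J background, 3 months of age and kept without food overnight. Cd36 encodes a membrane protein that binds and takes up long-chain fatty acids, and the labels do not say how the allele was made. Total RNA of brown fat, the heat-producing depot, was labelled with biotin and hybridised to Illumina bead arrays of 1 colour, 3 Cd36 null and 3 wild type. The labels do not say that the arrays of a genotype came from separate animals. Every p-value therefore rests only on how far these samples vary among themselves, and part of that variation may be technical.

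NRF2 is a transcription factor that KEAP1, together with the CUL3 ubiquitin ligase, marks for destruction. Oxidants and electrophiles that modify KEAP1 let NRF2 accumulate, pair with small MAF proteins and bind antioxidant response elements in genes for glutathione, thioredoxin, NADPH and detoxifying enzymes. Cbr3 encodes a cytosolic carbonyl reductase that uses NADPH, lies beside its relative Cbr1 and is counted among NRF2 targets in several cell systems.

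The antioxidant response element was looked for in the promoter sequences, because it is the feature that would mark these genes as a regulatory group. The search used the core TGACNNNGC on both strands of RefSeq promoter windows on GRCm38.p6, each of 300 bases from 250 before to 50 after a gene start. Windows were found for 8 of the 10 genes, and Hmox1 and Gclc were not matched. The core was in a window of 4 of them, Nfe2l2, Srxn1, Txnrd1 and Gclm. Among all 27025 genes of the table, 14.0% had it, and among all 32851 windows 12.4% had it. The sequences given are those of Cbr3, the gene with the largest difference of the set, and of 2 targets with the core, Srxn1 and Gclm, with the core in capitals. Of the NRF2 targets and partners outside the set, described further on, 9 passed the test. Among those 9 genes, 8 had a window and 2, Gsta3 and Abcc4, had the core. Elements outside these windows were not searched for, nor were forms inside them with a base other than C after TGA. The Srxn1 window, for example, also holds tgagtcagc, which was neither marked nor counted. A match is a run of letters and not a shown binding site.
Cbr3, chr16:93682969-93683268, plus strand, no core: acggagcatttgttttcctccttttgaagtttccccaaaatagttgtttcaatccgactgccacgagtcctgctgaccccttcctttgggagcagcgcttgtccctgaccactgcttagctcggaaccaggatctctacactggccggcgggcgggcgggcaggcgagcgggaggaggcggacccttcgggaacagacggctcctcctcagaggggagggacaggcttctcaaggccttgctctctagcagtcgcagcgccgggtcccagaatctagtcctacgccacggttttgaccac
Srxn1, chr2:152105274-152105573, plus strand, core on the opposite strand starting 28 bases after the gene start: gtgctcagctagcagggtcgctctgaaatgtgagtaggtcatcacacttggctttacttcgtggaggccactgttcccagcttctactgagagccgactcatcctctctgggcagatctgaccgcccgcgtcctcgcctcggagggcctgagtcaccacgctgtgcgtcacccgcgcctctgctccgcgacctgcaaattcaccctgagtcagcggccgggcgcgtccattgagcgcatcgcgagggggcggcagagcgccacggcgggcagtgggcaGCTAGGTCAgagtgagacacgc
Gclm, chr3:122245307-122245606, plus strand, core on the opposite strand starting 134 bases before the gene start: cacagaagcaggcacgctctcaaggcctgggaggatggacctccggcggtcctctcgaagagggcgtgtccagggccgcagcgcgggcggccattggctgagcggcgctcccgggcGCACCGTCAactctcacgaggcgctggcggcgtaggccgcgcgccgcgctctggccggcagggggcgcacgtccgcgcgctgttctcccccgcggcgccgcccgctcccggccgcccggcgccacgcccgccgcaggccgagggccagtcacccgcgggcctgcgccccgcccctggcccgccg

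Between 18139 and 19199 probes were detected on the Cd36 null arrays and between 16929 and 17035 on the wild type arrays, at a detection p under 0.05. Normalised log2 values correlated across tested probes at 0.955 to 0.966 between genotypes and at 0.970 to 0.988 within a genotype. The probe annotated as Cd36 lay at background, with 4.55 ± 0.05 log2 in Cd36 null and 4.96 ± 0.47 log2 in wild type fat (SD, n = 3 each). It was detected on 0 of 3 Cd36 null and 1 of 3 wild type arrays and so could not check the genotype labels. The defining markers of brown adipocytes, Ucp1 and Cidea, were detected on all 6 arrays. Null replicate 1 had the highest levels of hepatocyte markers and null replicate 3 the lowest levels of skeletal muscle markers, as described further on.

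Cbr3 was far higher in Cd36 null brown fat on both of its probes. The brighter probe read 10.56, 10.74 and 10.69 log2 in Cd36 null replicates 1 to 3, against 7.42, 7.73 and 7.70 in wild type replicates 1 to 3. All 3 null arrays stood above all 3 wild type arrays, with a gap many times the spread within a genotype. The means were 10.66 ± 0.09 in Cd36 null and 7.62 ± 0.17 in wild type fat (SD, n = 3 each), a difference of 3.05 ± 0.16 log2 (SE) or 8.25-fold. Before any correction the scanner intensities of this probe were 1681, 1869 and 1796 in Cd36 null and 228, 298 and 282 in wild type fat, a ratio of means of 6.62. The authors' deposited log2 values, made with a larger offset, gave 10.69 in Cd36 null and 7.84 in wild type fat, a difference of 2.85.

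The second Cbr3 probe read 9.23, 9.21 and 8.81 log2 in Cd36 null replicates 1 to 3, against 6.66, 6.56 and 6.79 in wild type replicates 1 to 3. Its genotypes did not overlap either, and the difference was 2.41 ± 0.18 log2 (SE), or 5.33-fold. Both probes were detected on every array, so neither fold rests on an undetected group. Across the 6 arrays the probes correlated at 0.99, a value set almost wholly by the genotypes. Ranked by the difference of the brightest probe, Cbr3 was number 21 of 10150 genes.

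**Figure D1:**
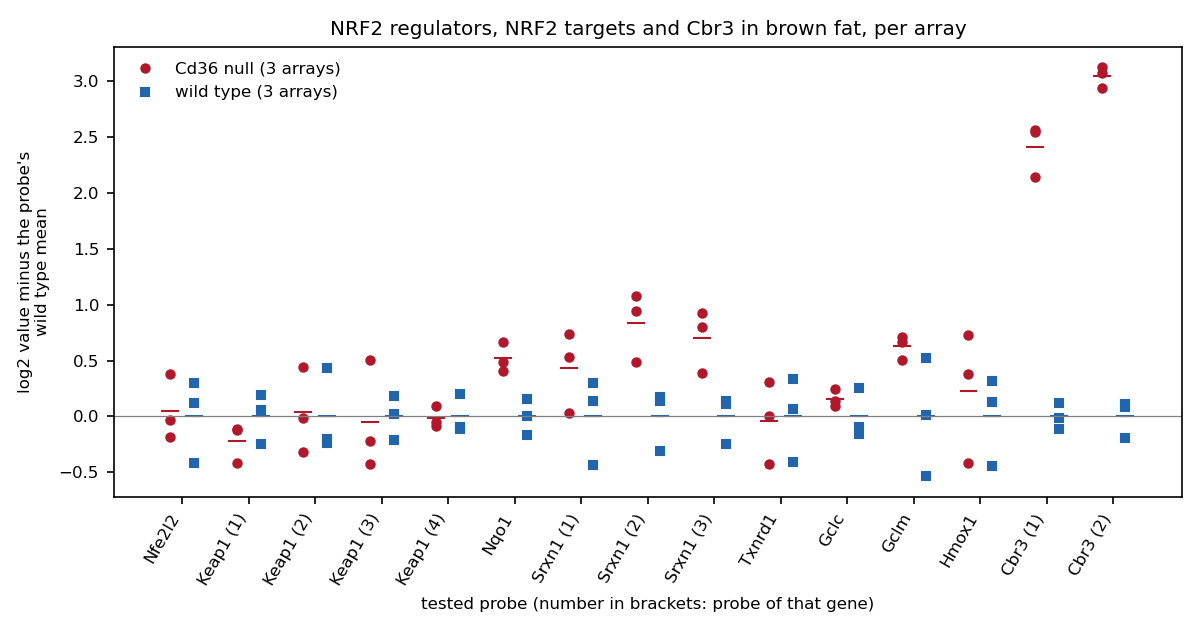
Log2 values of the 15 tested probes of the set on each array, with the wild type mean of that probe subtracted (circles, 3 Cd36 null arrays; squares, 3 wild type arrays; short lines, group means). Numbers in brackets tell probes of a gene apart, from dimmer to brighter for Cbr3 and Srxn1. The Cd36 null arrays of both Cbr3 probes lie at least 2 log2 units above the wild type mean, while no other probe's group mean is as much as 1 unit away.

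The other genes of the set differed by no more than 0.83 log2. Of the 15 tested probes, 11 had a higher and 4 a lower mean in Cd36 null fat. By the rule used for the whole array, an adjusted p under 0.05 in limma, 3 were called, all higher: both Cbr3 probes and 1 of Srxn1. Over the array 7.24% of tested probes were called in either direction. Genotypes did not overlap for 5 of the 15 probes, each with the null arrays above. Over all tested probes they did not overlap for 27.5%, counting either direction. Since this contrast informed the choice of genes, nothing is read from these shares. By the brightest probe of each gene, 7 of 9 genes had a higher null mean, or 8 of 9 with median scaling. Their median difference was 0.23 log2, and 0.19 without Cbr3, against -0.05 over all tested probes, whose 5th to 95th percentiles were -0.61 and 0.82. The median of the set was 0.12 with the authors' deposited log2 values and 0.08 without background correction. It was 0.53 without null replicate 1 and 0.39 without wild type replicate 2. Each of these medians over 9 genes was the value of Hmox1 alone. That gene lay near background and was detected on 2 null arrays and 1 wild type array.

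Nfe2l2 itself showed no separation of the genotypes. Its detected probe read 7.03, 7.59 and 7.18 log2 in Cd36 null fat, against 7.33, 7.51 and 6.79 in wild type fat, a difference of 0.05 ± 0.23 (SE). The ranges overlapped almost fully, and a second Nfe2l2 probe was detected on no array. NRF2 is regulated largely by protein stability, which these arrays do not measure.

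Keap1, the NRF2 inhibitor, also overlapped between genotypes on all 4 of its tested probes. The brightest read 9.85, 9.56 and 9.86 log2 in Cd36 null fat, against 10.03, 9.73 and 10.16 in wild type fat, a difference of -0.22 ± 0.18 (SE). The others differed by 0.04 ± 0.25, -0.05 ± 0.25 and -0.01 ± 0.16, and 1 further probe was detected on no array.

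Srxn1 encodes sulfiredoxin, which repairs over-oxidised peroxiredoxins. Its 3 probes all had higher null means, and 2 of them separated the genotypes. The brightest read 9.79, 10.32 and 10.20 log2 in Cd36 null fat, against 9.15, 9.54 and 9.50 in wild type fat, a difference of 0.70 ± 0.20 (SE). All null arrays lay above all wild type arrays. The middle probe read 8.58, 9.16 and 9.03 in Cd36 null fat, against 8.22, 8.27 and 7.78 in wild type fat, a difference of 0.83 ± 0.21. The dimmest read 7.36, 8.07 and 7.87 in Cd36 null fat, against 7.63, 7.48 and 6.90 in wild type fat, a difference of 0.43 ± 0.25, and here the lowest null array fell below 2 wild type arrays. On all 3 probes null replicate 1 was the lowest of the null arrays.

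The glutathione genes of the set gave smaller or less even differences. Gclm, the modifier subunit of the enzyme that starts glutathione synthesis, read 9.34, 9.14 and 9.30 log2 in Cd36 null fat, against 9.16, 8.65 and 8.10 in wild type fat. The difference was 0.63 ± 0.25 (SE), and wild type replicate 1 stood level with the null arrays. Gclc, the catalytic subunit of the same enzyme, was near background and was detected on 3 null and 1 wild type arrays. It read 5.29, 5.18 and 5.13 in Cd36 null fat, against 4.88, 4.94 and 5.29 in wild type fat, a difference of 0.16 ± 0.17 with overlap. Slc7a11, the light chain of the cystine importer that supplies glutathione synthesis, had 5 probes. None was detected on more than 1 array, so no level of it could be compared.

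Nqo1, a quinone reductase and a standard NRF2 readout, was dim but separated the genotypes. It read 5.59, 5.86 and 5.68 log2 in Cd36 null fat, against 5.02, 5.35 and 5.20 in wild type fat, a difference of 0.52 ± 0.17 (SE). It was detected on 3 null and 2 wild type arrays, its second probe was detected on no array, and the difference was 0.29 with the authors' deposited log2 values. Hmox1, the inducible heme oxygenase, read 4.48, 5.62 and 5.28 in Cd36 null fat, against 5.03, 5.21 and 4.46 in wild type fat. It differed by 0.23 ± 0.31 and was detected on 2 null arrays and 1 wild type array. Txnrd1, the cytosolic thioredoxin reductase, read 5.61, 4.88 and 5.31 in Cd36 null fat, against 5.64, 5.37 and 4.90 in wild type fat. It differed by -0.04 ± 0.25 and was detected on 2 arrays of each genotype. For Hmox1 and Txnrd1 the arrays of a genotype spread more widely than the genotypes differed. Genes this close to background have their differences compressed by the offset added before taking logs.

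NRF2 targets outside the set were examined to see whether they moved with Cbr3. This list of 53 genes was also written with earlier results known, among them that of Gsta3. Its genes were taken for being known NRF2 targets and were tested. The counts below include Gsta3, so they are not independent of those earlier results. The array held a named probe for 47 of the 53 genes, and 38 had a tested probe. At an adjusted p under 0.05 in limma, by the brightest probe, 8 of the 38 were higher in Cd36 null fat, 0 were lower and 30 did not pass. Of the 8, Slc3a2 met the detection filter only through the null arrays, so its place in this count is partly set by the filter. Over all named genes, 5.73% were called higher and 2.11% lower. At an unadjusted p under 0.05 in limma, 14 of the 38 were higher and 1 lower, against 1338 and 960 of all 10150 named genes tested. The median difference of the 38 was 0.18 log2, against -0.03 over all named genes tested. Without null replicate 2, null replicate 3 or wild type replicate 1 the count of higher genes was 5, and without wild type replicate 2 it was 4.

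Among enzymes of carbonyl and xenobiotic metabolism, 2 of 7 tested genes rose, 0 fell and 5 did not pass, with a median difference of 0.82 log2. Ephx1, the microsomal epoxide hydrolase, read 10.51, 10.59 and 10.59 log2 in Cd36 null fat, against 9.21, 9.21 and 9.53 in wild type fat. It rose by 1.24 ± 0.16 (SE, adjusted p = 0.0027 in limma). Cbr1, the relative and direct neighbour of Cbr3, read 10.83, 10.95 and 11.09 in Cd36 null fat, against 9.96, 10.22 and 10.23 in wild type fat. It rose by 0.82 ± 0.16 (adjusted p = 0.0182 in limma). Its groups did not overlap, but the call ended when null replicate 2, null replicate 3, wild type replicate 1 or wild type replicate 2 was left out, with adjusted p between 0.0597 and 0.0687.

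Among 12 tested genes of glutathione synthesis and transfer, 3 rose, 0 fell and 9 did not pass, with a median difference of 0.04 log2. Gsta3, a glutathione transferase, read 11.23, 10.40 and 10.23 log2 in Cd36 null fat, against 9.15, 9.03 and 9.30 in wild type fat. It rose by 1.46 ± 0.26 (SE, adjusted p = 0.0104 in limma), while its other tested probe differed by 0.39 without passing. Its highest array was null replicate 1, the array with the most hepatocyte transcripts, and Gsta3 is also made in liver. The difference was 1.17 log2 without that array, and the part of hepatocyte transcripts in it was not tested. Mgst2, a microsomal glutathione transferase, rose by 0.74 ± 0.16 (adjusted p = 0.0221 in limma). Slc3a2, the heavy chain that pairs with SLC7A11 and other amino acid transporters, was detected on 3 null and 0 wild type arrays. It was at least 1.37-fold higher in Cd36 null fat (adjusted p = 0.0377 in limma), with measured means of 5.58 in Cd36 null and 4.68 in wild type fat. The calls of Mgst2 and Slc3a2 each ended without null replicate 2, null replicate 3, wild type replicate 1 or wild type replicate 2 (highest adjusted p 0.106 and 0.129), and that of Gsta3 without wild type replicate 2 (adjusted p = 0.0505). That of Slc3a2 also ended with the authors' deposited log2 values, where it differed by 0.43 log2 (adjusted p = 0.0928), and without background correction, where it differed by 0.32 log2 (adjusted p = 0.1). Both are smaller than the bound given above for Slc3a2, which therefore depends on the background correction and offset.

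Of 7 tested genes of heme and iron handling, 2 rose, 0 fell and 5 did not pass. Slc40a1, the iron exporter ferroportin, read 11.04, 11.33 and 10.87 log2 in Cd36 null fat, against 9.66, 9.61 and 9.88 in wild type fat. It rose by 1.36 ± 0.18 (SE, adjusted p = 0.00275 in limma). Ftl1, the ferritin light chain, rose by 1.00 ± 0.16 (adjusted p = 0.00754 in limma). It read 13.66, 13.67 and 13.52 in Cd36 null fat, against 12.82, 12.48 and 12.53 in wild type fat. Both genes are also strongly expressed by iron-recycling macrophages.

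Of 4 tested efflux pumps and other targets, 1 rose, 0 fell and 3 did not pass. Abcc4, an export pump for organic anions and conjugates, read 9.77, 10.24 and 10.10 log2 in Cd36 null fat, against 8.09, 8.13 and 8.53 in wild type fat. It rose by 1.79 ± 0.20 (SE, adjusted p = 0.00136 in limma), the greatest difference among the 38. Abcc4, Slc40a1, Ftl1 and Ephx1 kept their calls under each alternative run.

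None of the 3 tested thioredoxin and peroxiredoxin genes or the 5 NADPH supply genes passed by its brightest probe in limma, and none of these 8 had an unadjusted p under 0.05. Prdx1, a peroxiredoxin and a substrate of the sulfiredoxin made from Srxn1, differed by 0.15 ± 0.16 log2 (SE, adjusted p = 0.655 in limma). That sign was reversed, to -0.12, when arrays were scaled to the median of the tested probes. Sesn2, a stress-induced sestrin, differed by 0.25 ± 0.23 (adjusted p = 0.585 in limma). Me1, the cytosolic malic enzyme, differed by 0.36 ± 0.25 (adjusted p = 0.479 in limma). Tkt, a transketolase of the pentose phosphate pathway, differed by -0.37 ± 0.17 (adjusted p = 0.255 in limma). All 3 of its probes had the null arrays below all wild type arrays, but they did not give the same call. Of the 3, 1 fell by 0.80 log2 (adjusted p = 0.0392 in limma) and another differed by -0.85 without passing.

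**Figure D2:**
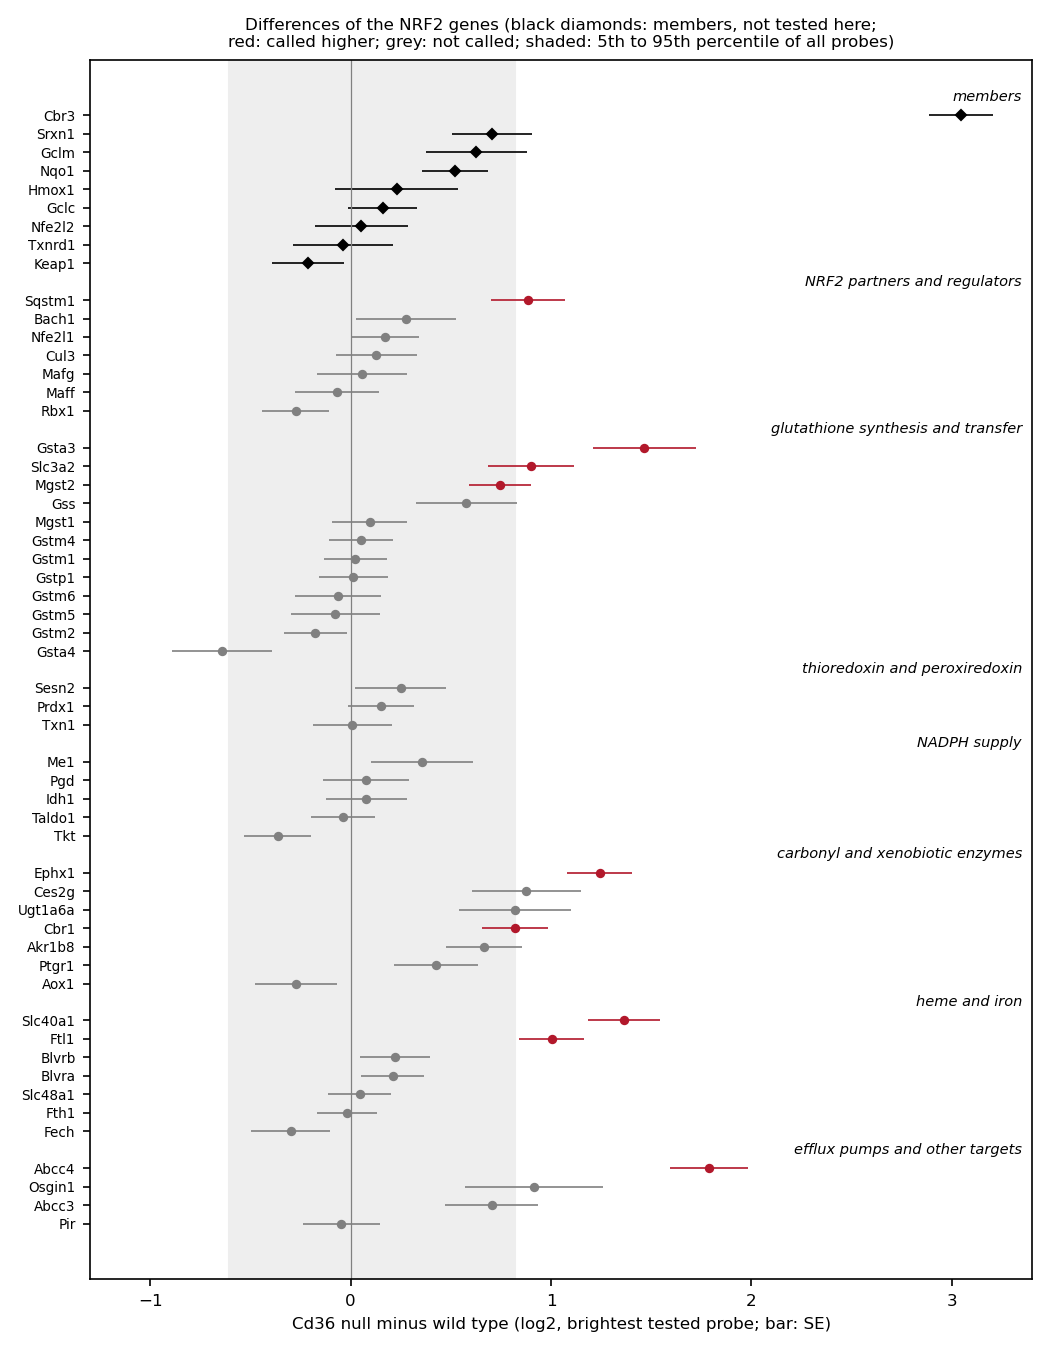
Difference of Cd36 null minus wild type (log2, brightest tested probe of each gene, bars SE), grouped by role. Diamonds are the set, with calls not marked, and circles are the NRF2 partners and the 38 further targets. Circles in red passed an adjusted p under 0.05 in limma, grey circles did not, and the shaded band spans the 5th to 95th percentiles of all tested probes, -0.61 to 0.82. Cbr3 at 3.05 lies far to the right of the band, and the genes that passed are scattered over several roles.

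Partners and regulators of NRF2 mostly did not pass, with 1 of 7 tested genes higher, 0 lower and 6 not passing. Sqstm1, which encodes the autophagy adaptor p62 that can sequester KEAP1 and is itself an NRF2 target, read 11.73, 11.98 and 12.00 log2 in Cd36 null fat. It read 10.97, 11.30 and 10.78 in wild type fat. It rose by 0.89 ± 0.19 (SE, adjusted p = 0.0226 in limma) and its groups did not overlap. The call ended without null replicate 2, null replicate 3, wild type replicate 1 or wild type replicate 3 (highest adjusted p 0.0813). Chosen after their values were seen, as partners of KEAP1 in the ubiquitin ligase, Cul3 differed by 0.13 ± 0.20 and Rbx1 by -0.27 ± 0.17 without passing.

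Among 6 tested paralogs of the set, by the brightest probe, Cbr1 alone passed in limma. At an unadjusted p under 0.05 in limma there were 2 higher and 0 lower, against 1338 and 960 of all 10150 named genes tested. The probes of Txnrd2, the mitochondrial thioredoxin reductase, did not give the same call. Its brightest differed by 0.08 log2 without passing, and the other fell by 0.75 log2 (adjusted p = 0.0303 in limma). Chosen after its values were seen, Cbr2, a further carbonyl reductase, differed by 0.70 ± 0.22 log2 (adjusted p = 0.095 in limma) with the 3 null arrays above the wild type arrays.

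Genes beside Cbr3 on chromosome 16 were compared to see whether the difference extended along the chromosome. Of the 5 protein-coding genes on each side in the RefSeq order, 5 had a tested probe, and Cbr1 alone passed in limma. Rcan1 differed by -0.31 ± 0.18 log2, Setd4 by 0.18 ± 0.21, Morc3 by 0.24 ± 0.19 and Chaf1b by 0.45 ± 0.16 (SE), none of them passing. The null arrays of Chaf1b lay above its wild type arrays (adjusted p = 0.136 in limma). Cd36 lies on chromosome 5, which holds none of the 10 genes.

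**Figure D3:**
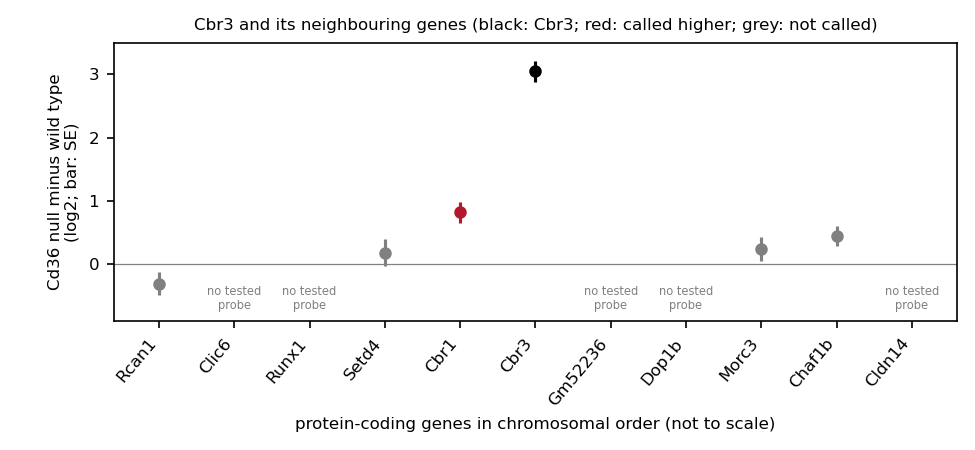
Difference of Cd36 null minus wild type (log2, brightest tested probe, bars SE) for Cbr3 and the 5 protein-coding genes on either side of it, in chromosomal order and not to scale. Cbr1 at 0.82 and Cbr3 at 3.05 stand side by side, and the other tested neighbours lie between -0.31 and 0.45.

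The genes whose pattern over the 6 arrays was most like that of Cbr3 were found by Pearson r between brightest tested probes, among 9853 genes. They were Oas2 (r = 0.9997), Cyp1b1 (0.9996), Cfp (0.9977), Pld4 (0.9976) and Map7 (0.9972). Oas2 encodes an interferon-induced antiviral enzyme, Cyp1b1 a cytochrome of xenobiotic and steroid metabolism, and Cfp the complement factor properdin. Their differences were 1.18 ± 0.15 log2 for Oas2, 1.32 ± 0.15 for Cyp1b1, 1.65 ± 0.15 for Cfp, 1.75 ± 0.15 for Pld4 and 1.18 ± 0.15 for Map7 (SE). In all, 349 genes had r above 0.95 and 46 above 0.99. Such values describe genes that differ cleanly between the genotypes, since the 6 arrays form 2 tight clusters, and none of the other genes of the set was among the 5.

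Markers of other cells are given beside these results, and some but not all of the lists moved with the genotype. Of 11 tested macrophage markers, 9 rose, 0 fell and 2 did not pass in limma. Trem2, which rose, and Spi1, which did not pass, met the detection filter only through the null arrays, so the count is partly set by the filter. Their summed level was 17760 to 18970 on the Cd36 null arrays and 3254 to 4229 on the wild type arrays. Lgals3 rose by 3.28 ± 0.19 log2, Lyz2 by 2.05 ± 0.17 and Laptm5 by 1.49 ± 0.16 (SE; adjusted p 7.19e-05, 3.27e-04 and 0.00136 in limma). Ptprc and Itgam were detected on no array. The part of macrophage transcripts in the difference of Cbr3, Slc40a1, Ftl1, Abcc4 or any other gene named here was not tested. In a tissue sample, more cells of a type and more RNA per cell cannot be told apart.

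Hepatocyte markers were uneven over the null arrays. Of 7 tested, 6 rose, 0 fell and 1 did not pass in limma. Fga, among those that rose, met the detection filter only through the null arrays. Ahsg and Hpx, which also rose, were each detected on 3 null arrays and 1 wild type array, so the count is partly set by the filter. Alb, Fgb and Tat were detected on no array. The summed level of the 7 tested markers was 19250 on null replicate 1, 1895 and 2931 on null replicates 2 and 3, and 223 to 802 on the wild type arrays. Null replicate 1 gave the lowest null value of the brighter Cbr3 probe and the highest null value of the other. Without that array the differences of these probes were 3.11 and 2.36 log2. The part of hepatocyte transcripts in these differences was not tested. Of 10 skeletal muscle markers, 0 passed in limma and 0 had an unadjusted p under 0.05. Their summed level was lowest on null replicate 3, at 31530, against 98600 and 136000 on the other null arrays and 95730 to 99830 on the wild type arrays. Without null replicate 3 the difference was 3.04 log2 for the brighter Cbr3 probe and 2.56 for the other. Of 10 brown adipocyte markers, by the brightest probe, 1 rose, 0 fell and 9 did not pass in limma, with 3 lower at an unadjusted p under 0.05. The null arrays lay below all wild type arrays for 4 of the 10. Of all 10150 named genes tested, 960 were lower at that unadjusted p in limma. In 1404 of them the null arrays lay below all wild type arrays. Elovl3, a fatty acid elongase, rose by 2.53 ± 0.20 log2 (SE, adjusted p = 3.06e-04 in limma). Pparg, which encodes the nuclear receptor that drives fat cell differentiation, differed by -0.64 log2 on its brightest probe without passing. Its other probes fell by 1.58 and 0.74 log2 (adjusted p 0.00202 and 0.0485 in limma). Ppargc1a and Ppara, a coactivator and a nuclear receptor of oxidative genes, differed by -0.69 and -0.65 without passing. Ucp1 averaged 14.78 ± 0.05 in Cd36 null and 14.90 ± 0.08 in wild type fat (SD, n = 3 each).

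**Figure D4:**
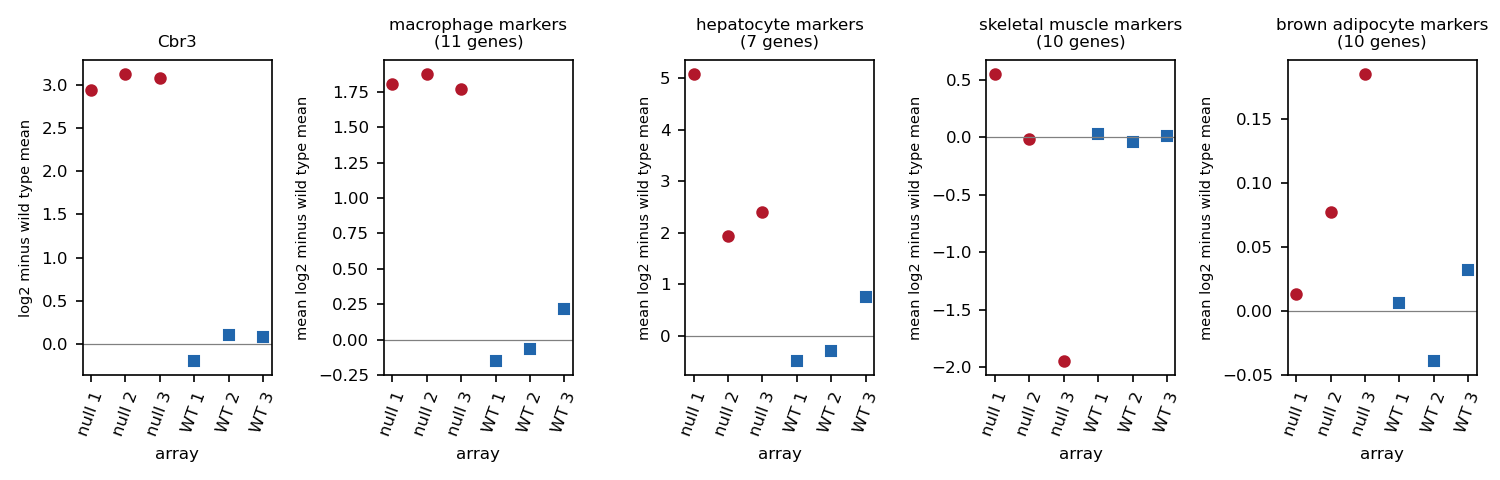
Log2 level of Cbr3 on each array, and mean log2 level of 4 lists of cell type markers, each minus its wild type mean (circles, Cd36 null arrays; squares, wild type arrays; each panel has its own vertical scale). Cbr3 and the macrophage markers are level over the 3 null arrays and above all wild type arrays. Hepatocyte markers are highest on null replicate 1 and muscle markers lowest on null replicate 3.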

How the data were processed

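Brown fat RNA of 3 Cd36 null and 3 wild type samples was measured on 1-colour bead arrays. The deposited scanner table holds a linear intensity per probe and array, not normalised, per the file headers. It also holds a detection p-value for each, per the file headers. The authors' processed table holds log2 values, and limma is named without a version per the submitters' processing notes. The sources used here do not give how that table was made. Its values differed by at most 0.024 from neqc with an offset of 50, so its scale and direction are those of neqc and its genes were not centred. The medians of its columns were 5.924 to 5.925.

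Intensities were corrected and quantile normalised with neqc (offset 16) in limma 3.58.1 under R 4.3.3. A probe was tested if its detection p was under 0.05 on 3 or more of the 6 arrays. Tests were run with lmFit and eBayes, adjusted by Benjamini-Hochberg over 17912 probes, at a threshold of 0.05. Differences are Cd36 null minus wild type in log2. A gene with several probes is represented by its brightest tested probe. Where no array of a genotype detected a probe, a fold is a lower bound. For it each array of the undetected genotype counted at its lowest detected signal, or at the probe's own signal where that was higher. Precision is limited by having 3 arrays per genotype.

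Of 45267 probes, 34875 had 1 gene symbol in the platform annotation, 18 had several and 10374 were not listed and are unnamed here. In the RefSeq table of GRCm38.p6, 34808 were found, and 3 symbols were updated. Probe sequences were not used here, so binding of RNA from close relatives, as among glutathione transferases, ferritin genes or Cbr1 and Cbr3, was not tested. The fit was tested on simulated data with known changes.

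The 10 genes, the further lists and the tests were chosen with earlier results of these data known. Named beyond the 10 genes and Cd36 are, from each further list, up to 6 genes past the threshold with the smallest p, or 2 where none passed, the 5 genes most like Cbr3, and up to 3 markers of highest level. Txnrd2, Trem2, Spi1, Fga, Ahsg, Hpx, Elovl3, Pparg, Ppargc1a and Ppara were named after their values were seen. Same-numbered arrays of the genotypes deviated together with correlations of 0.084, -0.018 and 0.03. Differently numbered arrays gave -0.083 to 0.074. No pairing by number was seen, though 3 arrays per genotype are too few to exclude it. The alternatives covered the authors' values, background, scaling, offset, filter, variance estimate, array weights, replicate block and each array left out.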

Additional observations from a re-analysis of the deposited data

How the results depend on the processing

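Each genotype had 3 arrays, and several genes of the set lay near background, where sizes depend on how background was handled. The difference of Cbr3 was 2.85 with the authors' values, 2.59 without background correction and 2.84 with an offset of 50, and 2.95 to 3.11 with any 1 array left out. The median of the 9 genes was 0.117, 0.078 and 0.122 under those 3 settings and 0.086 with scaling to the median of tested probes. With 1 array left out it was 0.169 to 0.532. Of these values, 0.117, 0.078, 0.122, 0.086 and 0.532 were those of Hmox1 alone, which lay near background. Over only those genes of the set detected on all 6 arrays the median was 0.626, the value of Gclm. The count of changed probes was 1296, with 2388 under array weights and 581 to 1012 with 1 array left out. It was 732 without null replicate 2, 704 without wild type replicate 1 and 581 without wild type replicate 2. The count of further targets called higher was 4 to 9 with 1 array left out and 6 to 11 otherwise, and 0 were called lower under every alternative. Calls were 897 higher and 399 lower (69.2% higher), against 1359 and 228 (85.6%) with median scaling, which moved the median of all tested probes to 0.08, against -0.05. Scaling to the median of tested probes, added after seeing the data, gave 803 and 527 (60.4%) and a median of -0.11. Prdx1 then differed by -0.12 and Slc3a2 did not pass (adjusted p = 0.0606). The difference of Sesn2 was -0.006 without wild type replicate 1 and at most 0.396 with another array left out. With the replicate number as a block, 868 probes changed and 6 further targets were higher, with Mgst2 (adjusted p = 0.0575) and Slc3a2 (adjusted p = 0.059) no longer passing. Without a filter Sqstm1, Gsta3 and Slc3a2 did not pass (adjusted p 0.0506, 0.0518 and 0.0979). Over the 13 further named genes, 179 of 207 values kept their direction and side of the threshold, and over the other 14 probes of the set 214 of 220 moved by less than 1 SD. The cause of these shifts was not tested.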
